A study of Mus musculus with 48 samples.

Results

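The 9 genes described here encode subunits of polycomb repressive complex 1 (PRC1): *Cbx2*, *Cbx6*, *Cbx7*, *Cbx8*, *Ring1*, *Rnf2*, *Bmi1*, *Pcgf2* and *Phc2*. They were chosen by name, and all 9 are among the 16510 genes counted. The question was which of them are themselves raised, in neural cells and in single kinds of cell, when polycomb repressive complex 2 (PRC2) is lost. In neural cells *Bmi1* rose 2.47-fold and *Cbx8* 1.95-fold, *Phc2* rose by a smaller amount, *Cbx6* fell, and the other 5 did not pass the test.

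PRC2 methylates a lysine in the tail of histone H3, and PRC1 puts a single ubiquitin on histone H2A. Both marks go with silent developmental genes. The ubiquitin ligase of PRC1 is *Ring1* or *Rnf2* (RING1B), which works as a pair with a PCGF protein such as *Bmi1* or *Pcgf2* (MEL18). In canonical PRC1 a CBX protein with a chromodomain can bind the methylated H3 left by PRC2, and a polyhomeotic protein such as *Phc2* links complexes to each other. In variant PRC1, RYBP or YAF2 takes the place of the CBX protein. In neural progenitors *Bmi1* is best known as a repressor of cell cycle inhibitors.

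Single cells of the hypothalamus were sequenced (RNA) from mouse embryos of both sexes at E18.5. Control embryos carried *Eed* fl/fl alone, and *Eed-cKO* embryos were *Eed* fl/fl; *Sox1-Cre*/+, with Cre inserted into the *Sox1* locus and active in the early neural tube. *Eed* encodes a core subunit of PRC2. Both genotypes thus carry the floxed allele, and the controls carry no Cre. There were 6 control embryos in 22 libraries and 9 *Eed-cKO* embryos in 26 libraries, with 1 to 4 libraries per embryo, so libraries were summed and an embryo is 1 replicate. Non-neural cells (endothelial, pericyte, leptomeningeal, microglia) were found by clustering and set aside, which left 6839 control and 6454 *Eed-cKO* neural cells, called All-Hypo. No type was given to 1910 of these cells, which were kept. Among them, a cluster of 2 control and 243 *Eed-cKO* cells had *Alas2* and *Cga* among its leading genes. Another, of 0 control and 61 *Eed-cKO* cells, was led by *Ttr*, *Cga* and *Tshb*. Whether the cells of these clusters are neural was not tested. The remaining unnamed clusters were shallow, at medians of 1245 and 1012.5 counted molecules per cell.

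A control embryo held 5363119 to 7487417 UMIs (counted molecules) and an *Eed-cKO* embryo 658175 to 6299181. One control library held 1207 cells, against at most 465 in an *Eed-cKO* library, and 101 cell barcodes occurred in more than 1 library (203 cells). The leading number of a library name was read as the litter, and each litter was of a single genotype, which left no comparison inside litters. With the 4 control and 6 *Eed-cKO* litters as the samples, 3 of the 9 genes were higher and 1 lower, as with embryos. Over all genes tested that way, 1734 were higher and 1533 lower. *Eed* itself had a control range of 29.4 to 33.8 CPM (median 32.9) and an *Eed-cKO* range of 19.5 to 27.9 (median 22.7), a log2 fold change of -0.45 (SE 0.08, adjusted p = 0.000454). The groups did not overlap, but the library kit reads transcripts from their 3′ end, and a UMI from outside the deleted part checks nothing. Summed levels of the marker lists in All-Hypo cells also differed: the 10 astrocyte markers together were at 817 to 2286 CPM in control and 1125 to 2412 in *Eed-cKO*, and the 10 leptomeningeal markers at 5.46 to 35.0 and 73.6 to 472. All 10 genes of both lists had a higher mean in *Eed-cKO*. Ranges that did not overlap were also those of the 11 neuron markers (7867 to 8683 against 6933 to 7700, 3 with a higher mean), the 9 tanycyte markers (99.4 to 190 against 238 to 390, 8 higher) and the 10 pericyte or smooth muscle markers (16.04 to 36.99 against 51.3 to 149.6, all higher). Their part in the results was not tested except where values within a kind of cell are given.

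Levels are a gene's CPM (UMIs scaled to the total) in the summed cells of an embryo, after TMM normalization. A log2 fold change is *Eed-cKO* over control, its standard error (SE) follows, and the test is edgeR's quasi-likelihood test with Benjamini-Hochberg adjustment over all genes tested, at 0.05. In All-Hypo cells all 9 genes passed the filter on low counts. Of the 9, 3 were higher and 1 lower in *Eed-cKO*, where 15.3% of all 12545 genes tested were higher and 12.4% lower (1917 and 1557 genes, or 2299 and 1097 when scaled by library size alone, with the same counts of 3 and 1 of the 9). For 2 of the 9, *Bmi1* and *Cbx8*, all *Eed-cKO* embryos were above all controls, which held for 4.03% of all genes. In none did every *Eed-cKO* embryo lie below control, against 2.66% of all genes. The median log2 fold change of the 9 genes was 0.26, beside 0.01 over all genes tested.

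*Bmi1* (chromosome 2, 18677018-18686629, plus strand, GRCm38) encodes a PCGF protein that stimulates the ligase. Per embryo it was at 84.8, 81.9, 96.3, 84.8, 69.7 and 82.9 CPM in control. In *Eed-cKO* the lowest embryo was at 179, the median at 202 and the highest at 278 CPM. The genotypes were well apart, and the highest value came from the embryo with the fewest cells. The means were 83.4 ± 8.50 (SD, n = 6) and 208 ± 28.3 CPM (SD, n = 9), a 2.47-fold difference (log2 1.304, SE 0.08, adjusted p = 2.18e-10). By its p-value it was 32nd of the 1917 genes that were higher. Leaving out any 1 embryo gave log2 values of 1.26 to 1.35.

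The share of cells with a *Bmi1* UMI moved the same way. It was 31.1% ± 5.45 of All-Hypo cells in control and 53.1% ± 7.23 in *Eed-cKO* (SD over embryos, n = 6 and 9), at a median of 4768 and 4425 UMIs per cell. At a fixed 2000 UMIs per cell the shares were 15.3% ± 1.36 and 33.7% ± 2.45; shallower cells, 1231 of control and 1015 of *Eed-cKO*, are not in them. In the non-neural cells, at 3946 and 3708 UMIs per cell, they were 17% ± 4.82 and 17.8% ± 8.49. Those shares include molecules from free RNA in the droplets, which the counts cannot separate.

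The other PCGF gene and the ligases did not pass the test in All-Hypo cells. *Pcgf2* (chromosome 11, 97688823-97700497, minus strand) had a control median of 73.0 CPM (62.9 to 92.6) and an *Eed-cKO* median of 83.5 (61.8 to 120), with a log2 fold change of 0.16 (SE 0.10, adjusted p = 0.238). *Ring1* (chromosome 17, 34020792-34024680, minus strand) was at 32.5 to 48.5 CPM (median 38.1) and 36.9 to 53.5 (median 47.4), a log2 fold change of 0.24 (SE 0.10, adjusted p = 0.0942). *Rnf2* (chromosome 1, 151458004-151500955, minus strand) was at 113 to 138 CPM (median 128) and 114 to 146 (median 123). For *Rnf2*, the main ligase of mouse PRC1, the log2 fold change was 0.01 with a 95% interval of -0.13 to 0.14 (adjusted p = 0.961). The groups of these 3 genes overlapped throughout. *Trmt1l* overlaps exons of *Rnf2* on the other strand, and the strand of counting is not stated, so part of the *Rnf2* UMIs is uncertain.

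*Phc2* (chromosome 4, 128654702-128752881, plus strand) is the one polyhomeotic gene of the 9. Control embryos lay close together, at 59.7 to 66.7 CPM around a median of 63.7, and *Eed-cKO* embryos spread from 58.2 to 90.2 around 75.9. The lowest *Eed-cKO* embryo was below all controls, and the others lay above them. The means were 63.7 ± 2.56 and 77.5 ± 9.77 CPM, a log2 fold change of 0.28 (SE 0.08, adjusted p = 0.0124). Under a test that asks for a log2 change above 0.18 the adjusted p was 0.157, so the rise is small beside that of *Bmi1*.

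Among the CBX genes, which hold the chromodomain that reads methylated H3, *Cbx8* rose. It lies on chromosome 11 (119036305-119040969, minus strand). Its levels were low, at 7.98 to 10.8 CPM in control (median 8.53; 328 UMIs in all) and 15.3 to 19.1 in *Eed-cKO* (median 17.4; 583 UMIs). The groups did not overlap. The means were 8.96 ± 1.11 and 17.4 ± 1.25 CPM, a 1.95-fold difference (log2 0.96, SE 0.11, adjusted p = 1.31e-06). Leaving out any 1 embryo gave 0.93 to 1.02. The share of All-Hypo cells with a *Cbx8* UMI was 4.19% ± 1.06 in control and 7.16% ± 1.80 in *Eed-cKO*, and 1.82% ± 0.443 and 3.37% ± 0.647 at 2000 UMIs per cell. In non-neural cells it was 2.34% ± 3.05 and 4.23% ± 3.36.

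*Cbx6* went the other way. It was at 158 to 222 CPM (median 203) in control and at 116 to 183 (median 156) in *Eed-cKO*. The groups overlapped in part. The means of 199 ± 22.8 and 151 ± 22.9 CPM gave a 0.760-fold level (log2 -0.40, SE 0.09, adjusted p = 0.00370). *Cbx6* lies on chromosome 15 (79823896-79834688, minus strand), and the annotated gene *Npcd* shares exons with it on the same strand, so that UMIs of this pair are uncertain. *Cbx2* (chromosome 11, 119022962-119031270, plus strand) was at 5.42 to 10.6 CPM in control and 6.92 to 11.7 in *Eed-cKO* (log2 0.26, 95% interval -0.04 to 0.57, adjusted p = 0.223). *Cbx7* (chromosome 15, 79915807-79971119, minus strand) was at 5.15 to 7.74 and 6.88 to 13.4 CPM (log2 0.33, 95% interval 0.01 to 0.65, adjusted p = 0.138). *Apobec3* overlaps *Cbx7* exons on the other strand. The groups of both overlapped, and their low counts (311 and 345, and 243 and 271 UMIs) leave wide intervals. The share of All-Hypo cells with a *Cbx6* UMI was 55.2% ± 5.81 in control and 45.1% ± 6.91 in *Eed-cKO*, and 30.7% ± 2.71 and 25.2% ± 2.91 at 2000 UMIs per cell.

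**Figure D1:**
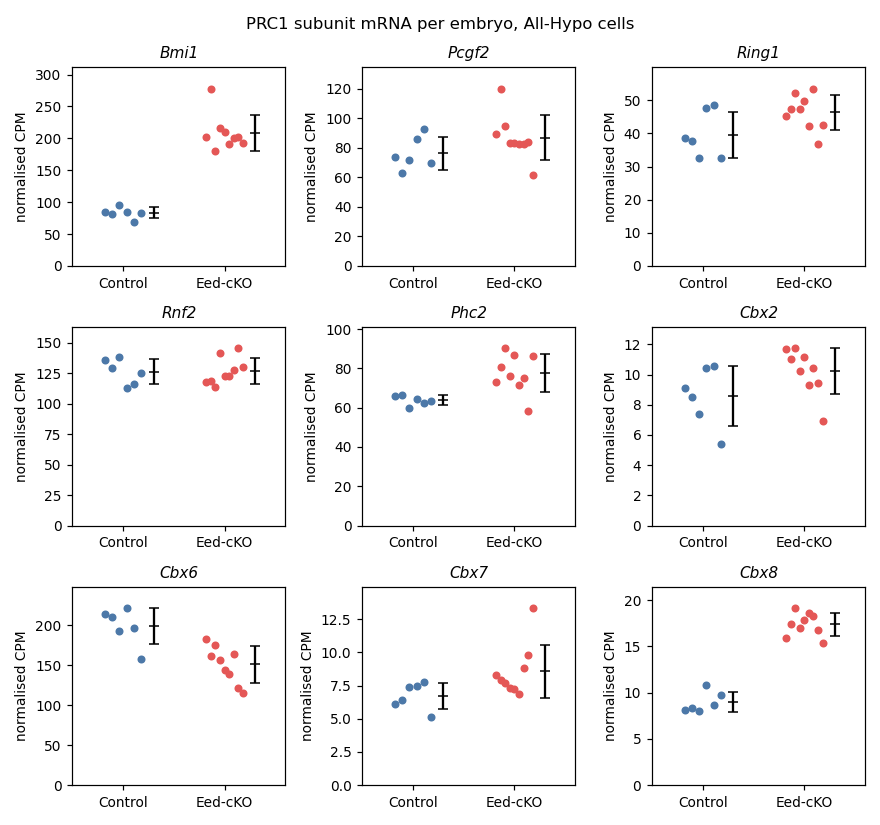
Normalised CPM (y axis, from 0) of the 9 PRC1 genes in All-Hypo cells, 1 point per embryo (6 control, 9 *Eed-cKO*), with the mean and SD beside each group. *Bmi1* (69.7 to 96.3 against 179 to 278) and *Cbx8* (7.98 to 10.8 against 15.3 to 19.1) are the panels in which the groups do not overlap.

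The windows before the start sites of the genes that rose most are shown because CpG-rich promoters are the usual place of polycomb marks. RefSeq (GRCm38.p6) gave a start for 8 of the 9 genes, in 10 windows of 250 bases before it. Printed are the bases before both the RefSeq start and the GENCODE gene, with each CpG in capitals.
*Bmi1*, chr2:18676768-18677017, plus strand: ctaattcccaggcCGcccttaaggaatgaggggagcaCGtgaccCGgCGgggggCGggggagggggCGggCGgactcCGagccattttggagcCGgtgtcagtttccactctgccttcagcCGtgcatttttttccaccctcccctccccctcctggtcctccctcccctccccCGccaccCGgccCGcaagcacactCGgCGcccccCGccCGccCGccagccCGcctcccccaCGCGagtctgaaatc
*Cbx8*, chr11:119040970-119041163, minus strand: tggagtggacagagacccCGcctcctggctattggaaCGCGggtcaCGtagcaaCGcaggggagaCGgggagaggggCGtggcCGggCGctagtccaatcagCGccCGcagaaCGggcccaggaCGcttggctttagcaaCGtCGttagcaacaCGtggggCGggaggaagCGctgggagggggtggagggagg
The 250-base window of *Bmi1* held 21 CpG and that of *Cbx8* 22, where the median of all 32851 windows was 6, and 16.3% and 14.8% of windows held at least as many. *Phc2*, which rose by less, had 13, 1 and 34 in its 3 windows. Of the genes that did not rise, *Ring1* had 30 in its window, *Cbx7* 23, *Rnf2* and *Cbx6* 20 each and *Pcgf2* 5. The count thus does not set the raised genes apart. The E-box CACGTG, which itself holds a CpG and reads the same on both strands, was found in 5 of the 10 windows, those of *Bmi1*, *Cbx8*, *Cbx6*, *Pcgf2* and 1 of the 3 of *Phc2*. It was found in 6.02% of all windows. The GC box GGGCGG (either strand) was in 9 of 10, against 32.7% of all windows, CCAAT in 4 of 10 against 33.8%, and TATAAA in 0 of 10 against 12.4%. These are matches of letters and not shown to be sites.

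Next the genotypes were compared within kinds of cell. Glut cells had a UMI of *Slc17a6* and none of *Slc32a1*, GABA cells the reverse, and Glut/GABA cells both. Of All-Hypo cells, Glut/GABA cells made up 4.31% ± 1.97 in control and 16.9% ± 4.63 in *Eed-cKO*. GABA cells made up 21.7% ± 3.22 and 10.5% ± 1.66, and Glut cells 39.9% ± 2.93 and 35.3% ± 3.36. The part of these shares in the results by kind was not tested, nor in the difference between GABA and Glut cells. Neuron-like, astrocyte-like and cycling progenitor-like cells were named from marker genes of clusters. The Glut, GABA and Glut/GABA cells were taken from all neural cells and share cells with the cluster kinds, so their results are not independent. The cycling progenitor-like cluster raised 9 cycling progenitor markers but also 8 oligodendrocyte precursor markers. Its leading genes included *Gpr17*, *Sox10* and *Pdgfra*, so it is not shown to hold cycling progenitors alone. Kinds with fewer than 3 embryos of at least 10 cells in a genotype, the ependymal-like and tanycyte-like cells, were not tested. Of the 9 genes, 2 were higher and 1 lower in Glut cells, where 6.11% and 5.1% of all genes were. In GABA cells 2 were higher and 0 lower (5.39% and 5.67% of all genes, and *Cbx6* reached an unadjusted p of 0.00814). In Glut/GABA cells 1 was higher and 1 lower (2.82% and 1.41%). In neuron-like cells 2 were higher and 1 lower (7.5% and 6.67%). In astrocyte-like cells 2 were higher and 0 lower (7.23% and 4.93%). Among cycling progenitor-like cells 1 of 8 genes tested was higher and 0 lower (2.99% and 1.38%). In non-neural cells none of the 9 passed either way (1.5% and 1.39% of all genes).

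*Bmi1* was higher in each of the 6 neural kinds tested, which share cells. In Glut cells it went from 80.2 ± 7.85 to 178 ± 28.3 CPM (log2 1.122, SE 0.09, adjusted p = 3.29e-09) and in GABA cells from 83.2 ± 13 to 251 ± 32.1 (log2 1.62, SE 0.12, adjusted p = 7.35e-14). In Glut/GABA cells it went from 83.0 ± 10.9 to 232 ± 38.3 CPM (log2 1.44, SE 0.13). In astrocyte-like cells the levels were 58.0 ± 25.9 and 175 ± 17.7 CPM (log2 1.65, SE 0.21), and in cycling progenitor-like cells 96.3 ± 36.7 and 231 ± 44.1 (n = 6 and 6, log2 1.17, SE 0.26, adjusted p = 0.00321). In all of these the lowest *Eed-cKO* embryo exceeded the highest control. With cells thinned to 2000 UMIs the call in cycling progenitor-like cells was lost (1.14, adjusted p = 0.0958). Over the 13 neuron-like clusters with enough embryos, fitted singly, the log2 fold change was above 0 in 13, from 0.31 to 1.88 (median 1.38).

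In non-neural cells, which *Sox1-Cre* does not target, *Bmi1* was at 27.7 to 67.2 CPM in control and 7.11 to 75.5 in *Eed-cKO* (n = 6 and 8). The ranges overlapped, and the log2 fold change was 0.32 with a 95% interval of -0.25 to 0.89 (adjusted p = 0.71). In these cells *Eed* was at 38.1 ± 9.30 and 23 ± 17 CPM (log2 -0.85, SE 0.33, adjusted p = 0.216, unadjusted p = 0.0188), and their make-up differed, with 89 control and 268 *Eed-cKO* leptomeningeal-like cells and microglia markers at a median of 2726 and 1127 CPM. The difference from the effect in All-Hypo cells, tested with the embryo as a block, was -0.88 (SE 0.30, adjusted p = 0.126) and did not pass, nor did that of any other of the 9 genes (3.41% of all genes did). Between GABA and Glut cells the effect did differ for *Bmi1*, larger in GABA cells by 0.49 on the log2 scale (SE 0.12, adjusted p = 0.00988), and for none of the other 8, where 1.09% of all genes differed. That call was lost without control embryo 1 or without *Eed-cKO* embryo 7 (lowest value 0.43), and with cells thinned to 2000 UMIs (0.47, adjusted p = 0.395).

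*Cbx8* behaved unlike *Bmi1* in astrocyte-like cells. Neuron-like cells had 6.31 to 7.23 CPM in control and 10.8 to 17.99 in *Eed-cKO*, with no overlap, and means of 6.66 ± 0.353 and 13.6 ± 2.57 (log2 1.00, SE 0.14, adjusted p = 8.76e-06). In astrocyte-like cells *Cbx8* was already at 34.2 to 59.5 CPM in control (73 UMIs in all) and was at 14.3 to 56.9 in *Eed-cKO* (117 UMIs). The ranges overlapped, and the log2 fold change was -0.03 with a 95% interval of -0.55 to 0.49. The effect in astrocyte-like cells was lower than that in neuron-like cells by 1.06 on the log2 scale (SE 0.33, adjusted p = 0.0470), the only one of the 9 genes to differ, where 5.08% of all genes did. This call is at the edge. Of the 15 embryos, leaving out any of 14 took the adjusted p past the threshold (up to 0.192), with values of -1.07 to -0.81, and thinned cells gave -1.42 (adjusted p = 0.0809). Astrocyte-like cells made up 5.49% ± 1.37 of All-Hypo cells in control and 10.1% ± 2.83 in *Eed-cKO*. The log2 fold change of *Cbx8* was 1.00 in neuron-like cells, which are most of the All-Hypo cells, and 0.96 in All-Hypo cells. The part of the astrocyte-like share in the All-Hypo value was not tested. In neuron-like cells the leptomeningeal markers together were at 3.76 to 10.9 CPM in control and 14.4 to 39.0 in *Eed-cKO*. The astrocyte markers there were at 163 to 195 and 208 to 272. In astrocyte-like cells the astrocyte markers had a median of 18180 CPM in control and 12538 in *Eed-cKO* (5 of 10 with a higher mean). The leptomeningeal markers there had medians of 32.3 and 749. The part of these markers in the results for *Cbx8* was not tested.

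In Glut cells *Cbx8* rose from 7.55 ± 1.52 to 14.7 ± 4.68 CPM (log2 0.84, SE 0.19, adjusted p = 0.00384), and in GABA cells from 5.45 ± 2.92 to 12.8 ± 8.65 (log2 1.24, SE 0.39, adjusted p = 0.0330). The GABA value rests on 46 and 43 UMIs, and in 5 cases the call was lost when 1 embryo was left out (control 3 or 5, *Eed-cKO* 4, 6 or 9). With cells thinned to 2000 UMIs neither call held (0.87, adjusted p = 0.132 in Glut cells and 0.98, adjusted p = 0.425 in GABA cells). Over the 12 neuron-like clusters in which *Cbx8* passed the filter on low counts, the log2 fold change was above 0 in 12, from 0.10 to 2.92. The cluster with enough embryos in which it did not pass had means of 5.86 CPM in control and 5.50 in *Eed-cKO*. In Glut/GABA cells the log2 fold change of *Cbx8* was 0.93 and not past the threshold (SE 0.41, adjusted p = 0.252).

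**Figure D2:**
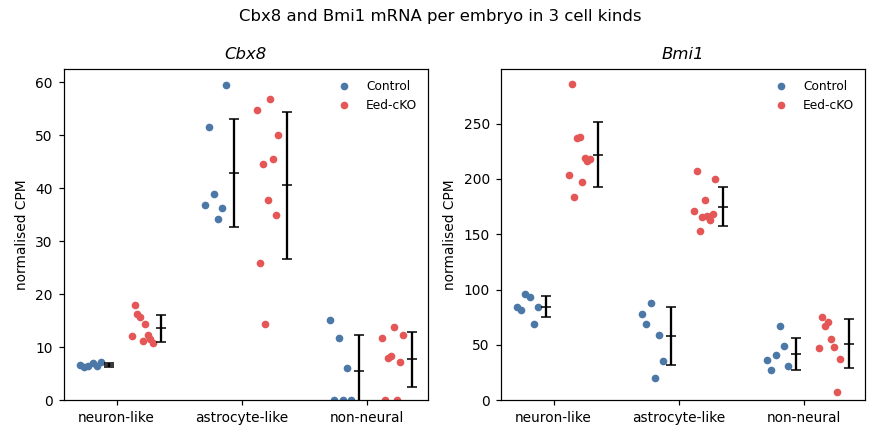
Normalised CPM (y axis, from 0) of *Cbx8* (left) and *Bmi1* (right) in neuron-like, astrocyte-like and non-neural cells, 1 point per embryo, with the mean and SD beside each group (6 control; 9 *Eed-cKO*, 8 in non-neural cells). *Bmi1* is apart between genotypes in both neural kinds, while *Cbx8* is apart in neuron-like cells (6.31 to 7.23 against 10.8 to 17.99) and overlaps in astrocyte-like cells at a higher level.

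*Phc2* passed the test within 1 kind, the astrocyte-like cells, at 82.6 ± 18.4 CPM in control and 126 ± 21.7 in *Eed-cKO* (log2 0.67, SE 0.18, adjusted p = 0.00848). In neuron-like cells its log2 fold change was 0.17 (SE 0.08, adjusted p = 0.179). In Glut cells it was 0.30 (SE 0.11, adjusted p = 0.0725, unadjusted p = 0.0101). In GABA cells it was 0.35 (SE 0.13, adjusted p = 0.0841, unadjusted p = 0.0124), and in Glut/GABA cells -0.04. Fitted singly, 11 of 13 neuron-like clusters were above 0. The call was made in 2 of 4 alternatives in Glut cells and 1 of 4 in GABA cells. It was made in 0 of 4 in neuron-like cells, but 3 of 4 in their clusters of at least 5% control cells. The difference between astrocyte-like and neuron-like cells was 0.47 (SE 0.19, adjusted p = 0.164), so the effects are not shown to differ. In the astrocyte-like cells the leptomeningeal markers together were at 17.1 to 93.1 CPM in control and 447 to 884 in *Eed-cKO* (10 of 10 with a higher mean), the pericyte or smooth muscle markers at 141 to 302 and 228 to 769 (8 of 10) and the tanycyte markers at 217 to 725 and 692 to 1786 (7 of 9). Their part in the *Phc2* result was not tested. The astrocyte-like call was lost with cells thinned to 2000 UMIs (0.60, adjusted p = 0.195). Scaled by total UMIs, control *Phc2* was at 81.4 ± 18.8 CPM in astrocyte-like and 58.8 ± 3.62 in neuron-like cells. Astrocyte-like cells made up 5.49% of All-Hypo cells in control and 10.1% in *Eed-cKO*. The part of this share in the All-Hypo rise of *Phc2* was not tested.

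*Cbx6* was lower in neuron-like cells (195 ± 18.6 and 154 ± 21.7 CPM, log2 -0.33, SE 0.08, adjusted p = 0.00773), in Glut cells (log2 -0.33, adjusted p = 0.0230) and in Glut/GABA cells (log2 -0.52, adjusted p = 0.0187). The Glut call was lost without control embryo 1, 2 or 4 (adjusted p up to 0.0608), and the Glut/GABA call without control embryo 4 (-0.39, adjusted p = 0.111) and with thinned cells (-0.31, adjusted p = 0.658). In astrocyte-like cells it was at 123 ± 36.4 and 132 ± 26.6 CPM (log2 0.08, adjusted p = 0.870). The 11 neuron markers together, lower in *Eed-cKO* over All-Hypo cells, were at 8694 to 9187 CPM in control neuron-like cells and 8373 to 8896 in those of *Eed-cKO*, and their part in the *Cbx6* result was not tested. A neuron-like cluster of 1455 cells, led by *Tfap2b* and *Hoxc10*, held 12 control cells and made up 22.8% ± 2.24 of *Eed-cKO* All-Hypo cells. In that cluster 70% of cells had a *Slc17a6* UMI and 61% a *Slc32a1* UMI. Its part in the results for Glut, GABA and Glut/GABA cells was not tested. Without that cluster the fall of *Cbx6* in neuron-like cells was -0.24 (adjusted p = 0.0664), while *Bmi1* (1.18) and *Cbx8* (1.05) still passed. In those shared clusters 2 of the 9 genes were higher and 0 lower, where 5.69% and 5.27% of all genes were. This comparison was added after the data were seen. *Pcgf2* did not pass in neuron-like cells (log2 0.27, SE 0.10, adjusted p = 0.0763), but it did in 3 of 4 alternatives there. In the shared clusters it did not pass in the main fit, but it did in all 4 alternatives (log2 0.28 to 0.34). The adjusted p was at most 0.0486 over those edgeR and DESeq2 fits. Fitted singly, 10 of 13 neuron-like clusters had a *Pcgf2* value above 0, and in astrocyte-like cells it was -0.16.

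**Figure D3:**
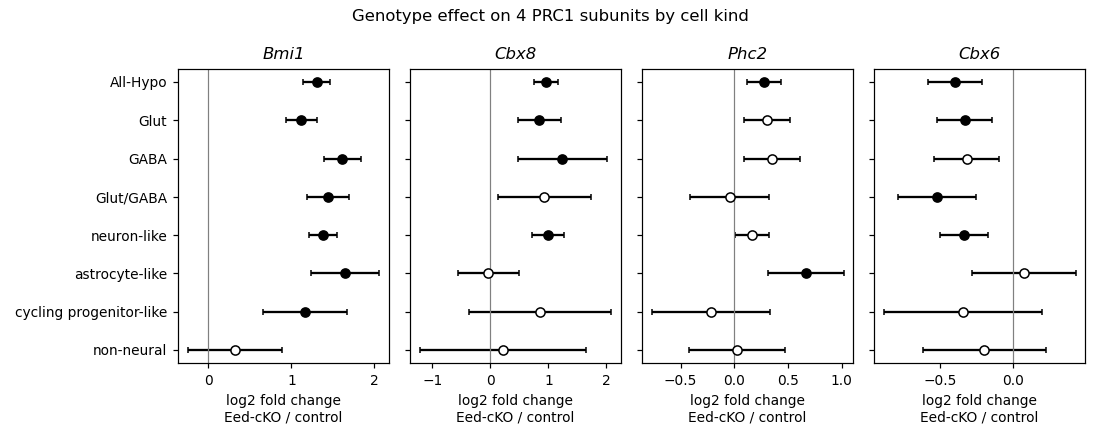
Log2 fold change of *Eed-cKO* over control (x axis, scaled per panel) of the 4 genes that passed in All-Hypo cells, in 8 kinds of cell (y axis), with 95% intervals; filled points passed edgeR's test at an adjusted p of 0.05. *Bmi1* is filled in every neural kind and open in non-neural cells (0.32), and *Cbx8* sits at -0.03 in astrocyte-like cells.

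Control levels across kinds are a description, scaled here by total UMIs of the kind so that they can be set side by side, and ordered over the 4 kinds that all 6 control embryos gave. *Cbx8* was highest in astrocyte-like cells (42.2 ± 10.2 CPM, 32.9 to 58.4 over 6 embryos), far from neuron-like cells (6.54 ± 0.333, 6.24 to 7.06). Cycling progenitor-like cells were between (16 ± 21.8), with non-neural cells last at 5.32 ± 6.36, and neither is apart from the neuron-like level beyond its spread. *Ring1* was also highest of the 4 kinds in astrocyte-like cells (78.3 ± 15.9 CPM), with a range over embryos (58.0 to 96.8) that did not meet that of neuron-like cells (28.7 to 45.3). *Cbx6* and *Rnf2* had their highest means of the 4 in neuron-like cells, at 191 ± 19 and 127 ± 6.57 CPM, against 120 ± 34.9 and 101 ± 15 in astrocyte-like cells. The *Cbx6* range of neuron-like cells (158 to 210) overlapped those of non-neural (86.5 to 195) and cycling progenitor-like cells (105 to 202), and that of *Rnf2* (117 to 133) overlapped the astrocyte-like range (85.4 to 123). *Phc2* was highest in cycling progenitor-like and non-neural cells (133 ± 22.7 and 127 ± 52.9 CPM), which overlap each other, and lowest in neuron-like cells (58.8 ± 3.62). *Bmi1* was at 96.3 ± 32.6 CPM in cycling progenitor-like, 83.1 ± 9.06 in neuron-like, 57.3 ± 26 in astrocyte-like and 42.2 ± 15 in non-neural cells, and neighbours in this order overlap. For *Pcgf2*, *Cbx2* and *Cbx7* the ranges of these 4 kinds overlapped. In the ependymal-like and tanycyte-like cells of 2 control embryos each, levels were as high or higher for some genes: *Ring1* was at 139 to 199.9 and 126 to 310 CPM, *Cbx6* at 261 to 263 and 105 to 345, and *Cbx8* at 17.4 to 90.9 in ependymal-like cells (11 UMIs).

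The neighbours of the genes that passed were read next, since genes of 1 locus can move together. A neighbour here is the nearest gene among those counted, so annotated genes without counts were skipped. *Commd3*, a gene of the COMM domain family, ends 787 bases before *Bmi1* on the same strand (chromosome 2, 18672384-18676231). Its control median was 101 CPM (95.97 to 113) and its *Eed-cKO* median 159 (120 to 182), with no overlap, and its log2 fold change was 0.61 (SE 0.07, adjusted p = 1.58e-06), less than the 1.304 of *Bmi1*. In astrocyte-like cells *Commd3* rose from 69.4 ± 17.6 to 180 ± 24.7 CPM (log2 1.39, SE 0.17), in neuron-like cells by 0.57 (SE 0.08), and in non-neural cells the value was 0.21 (adjusted p = 0.717). On the other side *Spag6*, 7403 bases away, did not pass (log2 0.18, SE 0.16, adjusted p = 0.419). Whether UMIs of the pair *Commd3* and *Bmi1* come from joined transcripts was not tested.

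*Cbx2*, which did not pass (log2 0.26), ends 5035 bases from *Cbx8* on chromosome 11. *Dnal4*, 46047 bases from *Cbx6*, was higher (log2 0.34, SE 0.10, adjusted p = 0.0161) where *Cbx6* was lower. The *Dnal4* call was lost with thinned cells (0.25, adjusted p = 0.130), with unnamed clusters left out (0.0711), under the test for a log2 change above 0.18 (0.0999) and without control embryo 2 (0.0570). The neighbours of *Phc2* were *Tlr12* (36083 bases away) and *A3galt2* (2483 bases), and *Apobec3* lay on the other side of *Cbx6* (56971 bases). These genes did not pass the filter on low counts and were not tested.

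**Figure D4:**
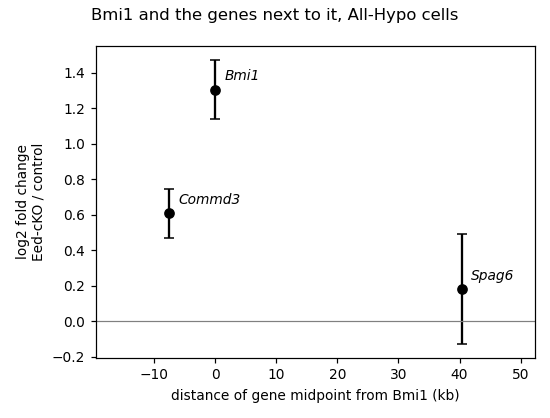
Log2 fold change (y axis, 95% intervals) of *Bmi1* and the genes beside it in All-Hypo cells, against the distance of the gene's midpoint from that of *Bmi1* in kb (x axis). *Commd3* (0.61) lies above 0 with a smaller value than *Bmi1* (1.304), and the interval of *Spag6* crosses 0.

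The other polycomb genes were read beside all 12545 genes tested in All-Hypo cells, of which 15.3% were higher and 12.4% lower. Of 22 variant PRC1 genes tested, 2 were higher and none lower (median log2 fold change 0.01): *Pcgf5*, a PCGF protein of variant PRC1, from 3.16 ± 1.03 to 6.42 ± 1.66 CPM (log2 1.07, SE 0.22, adjusted p = 0.000917), and *Bcor*, a corepressor that binds *Pcgf1*, from 39.4 ± 5.12 to 48.7 ± 7.05 (log2 0.27, SE 0.09, adjusted p = 0.0305). The *Bcor* call was lost in 5 alternatives, among them sex as a covariate (adjusted p = 0.0507) and thinned cells (0.0583), and without control embryo 5 or 6 or *Eed-cKO* embryo 4 or 5 (up to 0.0797). Of 10 PRC2 genes tested, 0 were higher and *Eed* was lower (median -0.03). Of 11 genes for removal of the PRC1 and PRC2 marks, *Asxl1*, a partner of the H2A deubiquitinase *Bap1*, was lower (log2 -0.32, SE 0.10, adjusted p = 0.0232) and none was higher (median -0.08). The *Asxl1* call was lost in 5 alternatives, among them scaling by library size (adjusted p = 0.0531) and thinned cells (0.0786), and without control embryo 1, 3 or 4 (up to 0.0651). *Rybp*, *Phf19* and *Epop* were not tested. The HP1 genes *Cbx1*, *Cbx3* and *Cbx5* carry a chromodomain too but bind another methylated lysine of H3. Of these, *Cbx5* fell from 383 ± 41.7 to 310 ± 26.8 CPM (log2 -0.31, SE 0.07, adjusted p = 0.00360), *Cbx1* was at 0.32 (adjusted p = 0.358) and *Cbx3* at -0.11 (adjusted p = 0.782). The *Cbx5* call was lost under edgeR's test for a log2 change above 0.18 (adjusted p = 0.0796).

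The genes most like each in level over the 15 embryos, by Pearson's r of log2 CPM, are named as a description, since all of them follow the genotype. For *Bmi1* they were *Gadd45b* (r = 0.986), *Hoxd9* (0.986) and *Hoxa3* (0.986), of which both Hox genes had 0 UMIs in control and 9.09 ± 3.33 and 7.54 ± 2.76 CPM in *Eed-cKO*. *Gadd45b*, a stress-inducible gene, was at 6.13 ± 1.13 and 30.5 ± 7.10 CPM. For *Cbx8* they were *Cd63* (0.983), *Rhoc* (0.982) and *Ppic* (0.973), each higher in *Eed-cKO* (log2 0.68, 1.10 and 2.12). *Cbx6* was most like *Msl1* (0.930), the neuronal RNA-binding gene *Elavl3* (0.919) and *Arl6ip5* (0.908), all lower, by -0.26, -0.33 and -0.48. *Phc2* was most like *Dpysl4* (0.935), *Mfap2* (0.924) and *Pde9a* (0.923), with log2 fold changes of 0.19, 0.51 and 0.43. The *Dpysl4* call (adjusted p = 0.0436) was lost in 10 of 16 alternatives and with any of 11 of the 15 embryos left out. *Msl1*, *Elavl3* and *Arl6ip5* lost theirs in 3, 1 and 1 of the 16.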

How the data were processed

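UMI counts of 14121 cells and 16510 genes from 48 libraries of mouse hypothalamus at E18.5 were used as deposited. The authors made these counts with SureCell, using STAR 2.5.2b on mm10 and SAMtools 1.3 (versions per the submitters' processing notes). The cells had been filtered before deposit, and the strand of counting is not given in the sources used here. The 9 genes, the other gene lists and the tests were chosen with earlier results of these data known.

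Clustering used leidenalg 0.10.2 through scanpy 1.11.5, and clusters were named from marker genes with at least 3 raised at least 2-fold in at least 10% of cells. A rule that left clusters led by *Cga*, *Tshb*, *Ttr* or *Alas2* unnamed, and a comparison of neuron clusters with the other named types, were set after the clusters were seen. Doublets were scored with Scrublet, and the top 6% were left out only as an alternative. Sums of counts over the cells of an embryo went into edgeR 4.0.16 under R 4.3.3 (TMM scaling, quasi-likelihood test, adjusted p under 0.05). Genes had at least 15 UMIs in all, 2 in 1 embryo and, in All-Hypo cells, a median log-CPM of 1.5. Kinds of cell used embryos with at least 10 of its cells. Differences between kinds were tested with the embryo as a block. An SE is the log2 fold change over the square root of F, and a 95% interval is 1.96 SE each way. Levels across kinds, shares of cells and correlations got no test.

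Named were the 9 genes, up to 4 called genes per direction in each other list, both neighbours of each gene called and its 3 closest in correlation. The result of 1 gene is not reported here. Alternatives used limma 3.58.1 and DESeq2 1.42.0, other scalings, filters, replicates and cell sets, thinning to 2000 UMIs, and each embryo left out. Thinning leaves 1 fixed number of UMIs per cell. Annotation was GENCODE vM21 and RefSeq on GRCm38. The fits were tested on simulated data. Embryo totals of 658175 to 7487417 UMIs set the precision, which is lowest for genes near 5 CPM. A table of library labels was not used.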

Additional observations from a re-analysis of the deposited data

Results flagged for a closer look

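Over 9 *Eed-cKO* embryos, *Bmi1* in All-Hypo cells was at 278 CPM in embryo 2, far from the nearest value of 216. That embryo had 1 library of 217 cells, the fewest. *Cbx2* was lowest in *Eed-cKO* embryo 9, at 6.92 CPM against 9.31 in the next, and *Cbx7* was highest in the same embryo, at 13.4 CPM against 9.84. Chance alone sets about 1 in 20 such groups apart.

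The effect of the genotype on *Bmi1* was larger in GABA than in Glut cells by 0.49 on the log2 scale, and that on *Cbx8* differed between astrocyte-like and neuron-like cells by -1.06, both by a test of the difference itself. The first lost its call without control embryo 1 or *Eed-cKO* embryo 7 and with thinned cells (adjusted p = 0.395), and the second with any of 14 of the 15 embryos left out (up to 0.192) and with thinned cells (0.0809).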

How the results depend on the processing

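In All-Hypo cells *Bmi1*, *Cbx8* and *Cbx6* kept their direction and their call under every alternative run and with each embryo left out. *Phc2* lost its call under edgeR's test for a log2 change above 0.18 (adjusted p = 0.157), a stricter test, and under limma-voom with such a test and libraries as samples (0.152). *Eed* lost its call with thinned cells (-0.39, adjusted p = 0.0551). No called value changed sign, and 106 uncalled values did. No paired analysis was possible because no litter held both genotypes.

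In All-Hypo cells the genes lower were 635 with that edgeR test, 831 with limma-voom, such a test and libraries as samples together, 2848 with libraries as samples and 989 with thinned cells. The genes higher were 3033 with libraries as samples and 1236 with thinned cells, and 5 of the 9 genes were higher with libraries as samples. Thinned cells left 1 of the 9 higher in Glut, 1 in GABA, 1 in astrocyte-like and 0 in cycling progenitor-like cells, 0 lower in Glut/GABA cells, and 0 that differed between GABA and Glut or between astrocyte-like and neuron-like cells. Scaling by library size alone gave 4 higher in GABA cells. In the neuron-like clusters with at least 5% control cells, 4 were higher with library size alone, with DESeq2 and with the median filter. These were *Bmi1*, *Cbx8*, *Pcgf2* and *Phc2*. Counts over all genes are not given for these alternatives within kinds of cell. Thinning keeps fewer UMIs. Otherwise the cause was not tested.

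Leaving out 1 embryo at a time, 3 to 4 of the 9 were higher and 1 lower in All-Hypo cells, and 1546 to 2100 genes were higher and 1210 to 1755 lower. In GABA cells 1 to 2 were higher and 0 to 1 lower.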
